A study of Mus musculus with 16 samples.

Results

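Genes whose products receive, destroy or carry retinoic acid were followed through ChIP-seq peak lists of mouse pre-osteoblasts before and after osteogenic differentiation. They were the receptors Rara, Rarb and Rarg, the degrading enzymes Cyp26a1, Cyp26b1 and Cyp26c1, and the binding proteins Crabp1 and Crabp2, which makes 8 of the 22238 protein-coding genes of the annotation. The 8 were chosen by name as retinoid genes, and they were also selected on measured values: their RUNX2 and C/EBPβ peaks, promoter marks and H3K36me3 in these same lists were known when they were picked. Their values are therefore descriptions and carry no test. Across the 8 genes, RUNX2 peaks numbered 22 in undifferentiated and 10 in differentiated cells, and 11 of the 22 lay inside Rara. The whole RUNX2 list also shortened, from 12674 to 6272 peaks.

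Retinoic acid is made from vitamin A and binds the retinoic acid receptors, which sit on DNA as pairs with a retinoid X receptor at direct repeats of a short half-site. Enzymes of the Cyp26 family oxidise retinoic acid and so limit how far and how long it acts, and the Crabp proteins hold it in the cytoplasm. Genes for a receptor and for a degrading enzyme, Rarb and Cyp26a1 above all, are themselves classic targets of the receptors. In the skeleton the pathway is known for its part in cartilage and bone patterning, and either too much or too little retinoic acid disturbs it.

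The cells were MC3T3-E1, an established mouse pre-osteoblast line, at passages 5 to 12. Differentiated cultures had spent 15 days in medium with ascorbic acid at 50 µg/mL and glycerol-2-phosphate at 10 mM, and undifferentiated cultures had not. Both kinds of culture received ethanol, the vehicle, for 3 h, although for H3K36me3 in differentiated cells the treatment label is damaged and the title supplied the state. The 16 samples gave 14 lists, 1 per antibody and state, and 2 inputs, not analysed here, of which the differentiated one was labelled with 1,25-dihydroxyvitamin D3 in place of vehicle. Of the 7 antibodies, 2 were against transcription factors, RUNX2, which bone formation requires, and C/EBPβ, of the leucine zipper family. The other 5 were against histone marks: the acetylations H4K5Ac and H3K9Ac of active regions, H3K4me1 of enhancers and promoter flanks, H3K4me3 of active promoters, and H3K36me3 of transcribed gene bodies. The protocol lists H3K5Ac where the antibody label gives H4K5Ac. Only the differentiated cultures carried mineralised matrix, which was broken up with a homogenizer and spun off through sucrose, so that step cannot be told apart from the state of the cells. Because each antibody and state had 1 merged list, no comparison had a replicate check, and a weaker signal per cell cannot be told apart from fewer cells carrying it.

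The lists differed in length between states. The RUNX2 list held 12674 peaks before and 6272 after differentiation, and that of C/EBPβ 15622 and 10847. H3K9Ac went the other way, with 14975 and 23671 regions, whereas H3K36me3 had 17829 and 17330. The read depth is unknown, since peak lists hold no read counts. Among 10 osteoblast marker genes, H3K4me3 marked a promoter of 5 in either state. H3K36me3 covered at least 50% of the body of 6 in undifferentiated and 7 in differentiated cells, Ibsp (bone sialoprotein) being the addition. Alpl, Bglap and Bglap2 were below 50% in both states. Among 23 markers of adipocytes, chondrocytes, muscle, blood, endothelium and nerve, the corresponding numbers were 1 and 1 for H3K4me3 and 3 and 2 for H3K36me3, with Sox9, Col2a1 and Cd68 the genes involved. The adipocyte, muscle, endothelial and neural lists were at 0 for both marks in both states. Of all genes, 34.9% in undifferentiated and 40.1% in differentiated cells had H3K4me3 at a promoter. H3K36me3 covered at least 50% of the body of 46.0% and 46.1% of all genes of 2 kb or more.

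The sequences on which the results turn are the RUNX2 peaks of these genes that were found again in differentiated cells, and the stretches upstream of Rarb and Cyp26a1 that hold a retinoic acid receptor repeat. All are in mm9. Peaks are read on the plus strand in lower case with their undifferentiated coordinates. Capitals mark TGTGGT, the RUNX motif, or its reverse complement ACCACA, and TTGCNNAA, the C/EBP motif. The kept peaks of Rara lay in its introns, the first of them without either motif and the other two with TGTGGT.

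Rara chr11:98801434-98801634: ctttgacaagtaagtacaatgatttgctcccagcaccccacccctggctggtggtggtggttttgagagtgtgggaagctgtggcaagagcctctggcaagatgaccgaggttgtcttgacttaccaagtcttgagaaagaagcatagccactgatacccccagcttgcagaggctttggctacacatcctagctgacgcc
Rara chr11:98806201-98806401: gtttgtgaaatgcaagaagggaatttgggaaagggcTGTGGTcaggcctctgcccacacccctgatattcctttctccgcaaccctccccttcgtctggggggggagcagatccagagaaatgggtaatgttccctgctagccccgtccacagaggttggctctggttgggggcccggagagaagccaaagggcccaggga
Rara chr11:98806764-98806964: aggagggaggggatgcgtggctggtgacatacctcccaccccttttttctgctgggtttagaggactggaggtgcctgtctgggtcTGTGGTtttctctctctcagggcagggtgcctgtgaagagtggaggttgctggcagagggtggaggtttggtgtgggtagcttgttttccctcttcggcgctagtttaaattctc

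The other 4 kept peaks belonged to Rarg, Cyp26a1 and Crabp2. Those at the Rarg-005 promoter and in an intron of Crabp2 hold a C/EBP motif, and the one downstream of Cyp26a1 holds the RUNX motif in both orientations.

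Rarg chr15:102074010-102074210: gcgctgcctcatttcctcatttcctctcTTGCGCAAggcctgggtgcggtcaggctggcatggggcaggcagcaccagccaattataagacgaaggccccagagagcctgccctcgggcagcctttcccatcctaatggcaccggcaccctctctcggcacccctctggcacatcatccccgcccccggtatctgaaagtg
Rarg chr15:102077348-102077548: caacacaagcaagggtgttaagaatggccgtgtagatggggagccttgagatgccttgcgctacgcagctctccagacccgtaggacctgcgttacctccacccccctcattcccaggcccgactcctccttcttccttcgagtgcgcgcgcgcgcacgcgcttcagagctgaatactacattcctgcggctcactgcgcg
Cyp26a1 chr19:37780297-37780497: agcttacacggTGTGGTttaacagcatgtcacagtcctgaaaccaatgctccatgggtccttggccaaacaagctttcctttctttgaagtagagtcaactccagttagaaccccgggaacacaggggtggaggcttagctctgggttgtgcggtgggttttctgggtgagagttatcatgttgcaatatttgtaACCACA
Crabp2 chr3:87753831-87754031: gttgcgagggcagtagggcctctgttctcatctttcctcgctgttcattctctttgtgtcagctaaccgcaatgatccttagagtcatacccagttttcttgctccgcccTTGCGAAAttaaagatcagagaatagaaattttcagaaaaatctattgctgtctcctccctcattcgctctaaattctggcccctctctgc

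The 250 bases before a start site were searched on both strands for direct repeats of the half-sites AGGTCA and AGTTCA with spacers of 1, 2 or 5 bases. The window of Cyp26a1-201 held such a repeat with a spacer of 5, on the minus strand, at positions -32 to -16 counted from the start site, and none of the other 22 windows of the 8 genes held one. Of all 69991 windows, 14 had the spacer of 5, which is 0.0200%. With GGGTCA and GGTTCA admitted as half-sites, a choice made after seeing the data, the window of Rarb-202 had one as well, at -57 to -41, and 49 of all windows did, or 0.0700%. In the 2 windows below, each read 5′ to 3′ on the strand of its gene, capitals mark the whole repeat.

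Rarb-202 upstream, chr14:17407987-17408236, minus strand: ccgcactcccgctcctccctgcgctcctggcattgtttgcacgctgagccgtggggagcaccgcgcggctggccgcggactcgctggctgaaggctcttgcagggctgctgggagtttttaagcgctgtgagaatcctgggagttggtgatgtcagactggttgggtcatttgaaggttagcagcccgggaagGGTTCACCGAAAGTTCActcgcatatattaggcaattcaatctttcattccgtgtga
Cyp26a1-201 upstream, chr19:37772048-37772297, plus strand: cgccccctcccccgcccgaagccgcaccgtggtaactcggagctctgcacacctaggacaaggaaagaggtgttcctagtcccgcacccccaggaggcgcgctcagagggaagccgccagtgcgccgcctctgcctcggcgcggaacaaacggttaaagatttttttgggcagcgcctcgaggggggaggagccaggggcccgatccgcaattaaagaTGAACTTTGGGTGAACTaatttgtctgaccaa

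Peaks were counted for the gene with the nearest transcription start site (TSS) within 100 kb. RUNX2 peaks were fewer after differentiation at 4 of the 8 genes, Rara, Rarb, Rarg and Crabp2, and were equal at Cyp26a1, Cyp26b1 and Crabp1. In undifferentiated cells 7 of the 8 genes had a RUNX2 peak and in differentiated cells 6, against 27.3% and 15.0% of all genes. Fewer peaks after differentiation were also the rule elsewhere: of all genes with a RUNX2 peak in either state, 68.1% had fewer in differentiated cells, and of the 7 such genes here 4 did. C/EBPβ peaks numbered 16 and 7. Again 7 and 6 of the genes had one, against 27.7% and 21.8% of all genes, and 6 of the 7 had fewer in differentiated cells, against 51.6%. Cyp26c1 had no peak of either factor by this count, while within 20 kb of its TSS lay 1 C/EBPβ peak of undifferentiated cells, the one counted for Cyp26a1 at 5.01 kb. Because the genes were chosen with these counts known, the shares of all genes stand here as the background and nothing is read from the distance to them.

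**Figure D1:**
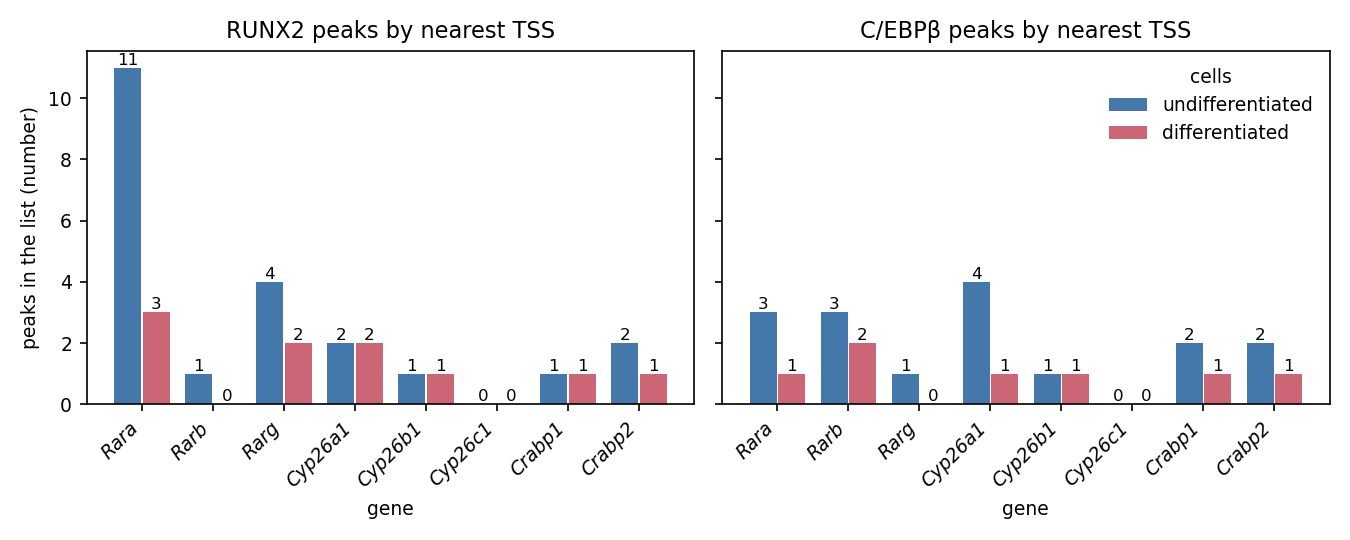
Number of RUNX2 (left) and C/EBPβ (right) peaks per gene by nearest TSS within 100 kb, in undifferentiated (blue) and differentiated (red) cells, with the number above each bar. Rara has the tallest RUNX2 bar, 11 against 3, and Cyp26a1 the tallest C/EBPβ bar, 4 against 1.

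Rara, which encodes the receptor RARα and spans chr11:98789132-98836256 on the plus strand with 8 TSSs, had 11 RUNX2 peaks before and 3 after differentiation. All 11 lay in its body, between 61 bp and 8.98 kb from the nearest TSS, and 1 of them overlapped an exon. The count placed Rara among 18 genes with 11 or more undifferentiated RUNX2 peaks, and the drop of 8 among 9 genes with as large a drop. The kept ones were at 508 bp, 5.28 kb and 5.84 kb downstream of the nearest TSS, with centres that moved by 21, 16 and 68 bp between states. The peak 61 bp upstream of the TSS of Rara-005 was lost, and none was gained. Of the 11 peaks, 6 contained the RUNX motif, including 2 of the 3 that were kept.

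C/EBPβ had 3 peaks in Rara before differentiation and 1 after. The kept C/EBPβ peak, 2.09 kb from the TSS of Rara-003, was away from any RUNX2 peak. The lost ones sat on the kept RUNX2 peaks at 508 bp and 5.28 kb. At those 2 sites RUNX2 was therefore called in both states, and C/EBPβ in undifferentiated cells alone.

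H3K4me3 ran over most of Rara in undifferentiated cells. It covered 80.0% of the body, 37.7 kb, and in differentiated cells 16.4%, 7.75 kb, a difference of -63.5 percentage points. The undifferentiated cover consisted of a region of 32.1 kb, which began upstream of Rara inside the neighbouring gene Cdc6 and was the 10th widest of 6920 H3K4me3 regions, and a second region of 9.81 kb. In differentiated cells 2 regions of 3.94 and 3.81 kb remained, one over the TSSs of Rara-001, Rara-002, Rara-005, Rara-201 and Rara-006, and one over Rara-004. Of the 8 TSSs, 6 thus kept H3K4me3 within 1 kb, and Rara-003 and Rara-202 lost it. Of all genes with a body of at least 2 kb and any H3K4me3 cover, 50.2% had lower cover in differentiated cells, and 1.02% had cover lower by 50 points or more. Among genes longer than 20 kb, 9 of 5238 dropped that far, and by kilobases lost, 29.9 at Rara, 6 genes lost as much or more. The whole differentiated H3K4me3 list had more regions, 8196, with a smaller median width, 2417 against 2866 bp, and covered 21.8 Mb against 26.4 Mb; its part in the narrowing at Rara was not tested.

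**Figure D2:**
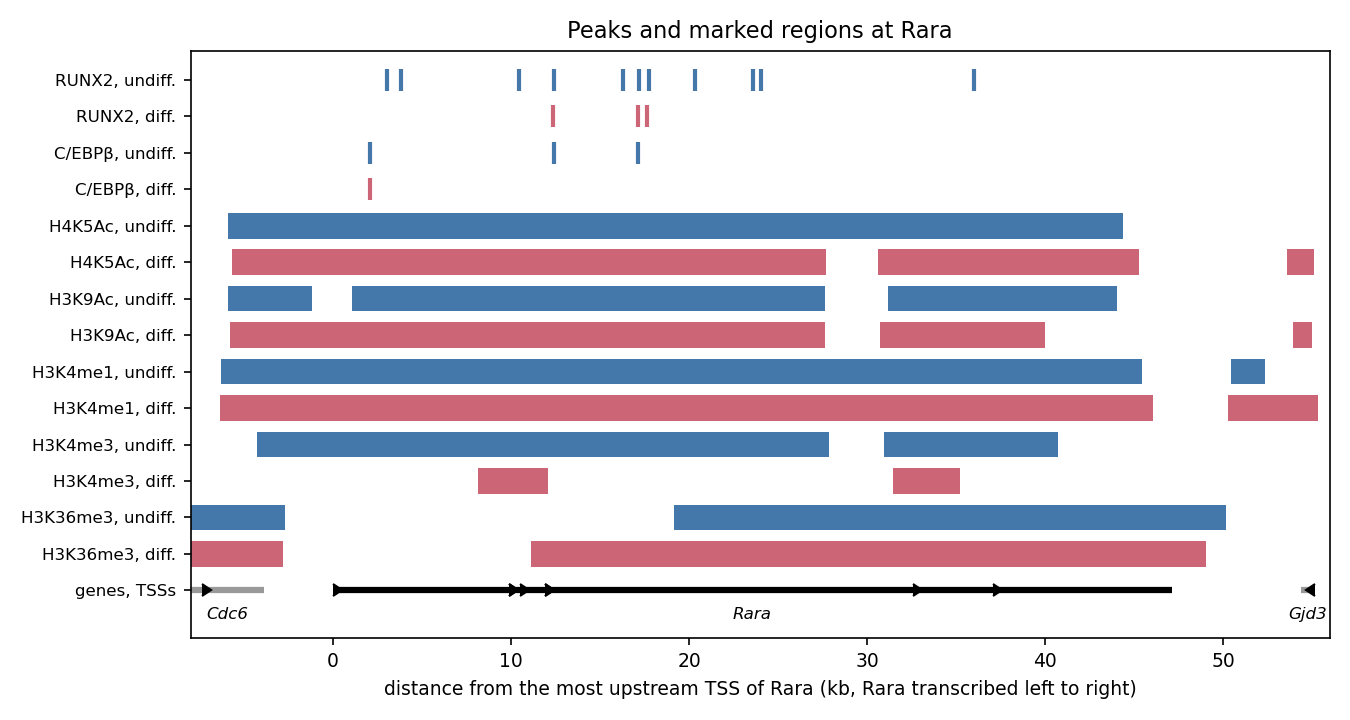
RUNX2 and C/EBPβ peaks (ticks) and marked regions (bars) along Rara in undifferentiated (blue) and differentiated (red) cells, against the distance in kb from the most upstream TSS; arrowheads are TSSs, and neighbouring genes are grey. RUNX2 ticks go from 11 to 3 and the H3K4me3 bars shrink, while the H4K5Ac, H3K9Ac and H3K4me1 bars span most of the gene in both states.

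The other marks of Rara did not narrow in this way. H4K5Ac covered 94.2% of the body before and 89.9% after differentiation, H3K9Ac 83.7% and 78.3%, and H3K4me1 96.4% and 97.7%. H3K36me3 covered more, 59.4% and 76.4%, and the start of its region lay farther upstream, at 98800276 in place of 98808264. The stretch that carried both H3K4me3 and H3K36me3 shrank from 18.6 to 4.73 kb. All 11 undifferentiated RUNX2 peaks of Rara lay in undifferentiated H3K4me3 and 1 of them in differentiated H3K4me3, namely the lost promoter peak. None of the 3 kept peaks lay in differentiated H3K4me3.

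**Figure D3:**
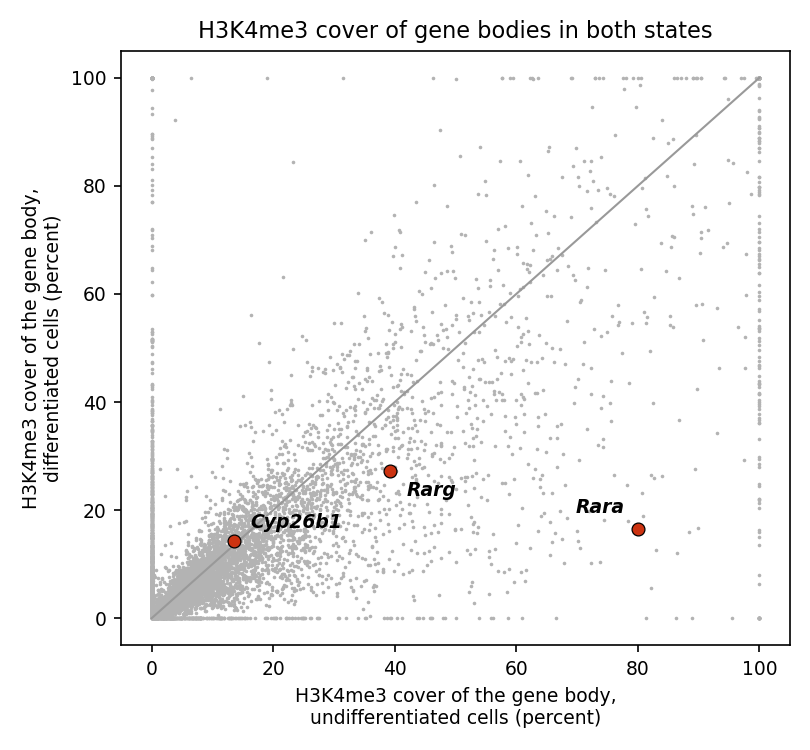
H3K4me3 cover of each gene body in undifferentiated (x axis) and differentiated (y axis) cells, in percent; grey points are genes with cover in either state, red points the 3 retinoid genes with H3K4me3, and the line marks equal cover. Rara lies far below the line at 80.0% and 16.4%, Rarg nearer to it at 39.2% and 27.2%, and Cyp26b1 on it at 13.5% and 14.4%.

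Likeness to Rara was measured as the Euclidean distance between log2(count + 1) of the 14 lists, and the 5 nearest genes were Slc3a2 (1.69), Actb (1.74), Scd2 (1.74), Frmd8 (1.75) and Sdc4 (1.97). Slc3a2 encodes an amino acid transporter chain, Actb β-actin, Scd2 a fatty acid desaturase and Sdc4 the proteoglycan syndecan-4. These genes were chosen on the same counts, RUNX2 included, so their RUNX2 numbers are a description and no comparison with Rara is drawn. Frmd8 had the most undifferentiated RUNX2 peaks of the 5, with 7 and 3 in the 2 states, and Actb had 5 and 1. Scd2 had 4 and 3, and Slc3a2 and Sdc4 had the same number in both states, 3 and 5.

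Rarg, which encodes RARγ and lies at chr15:102065369-102087948 on the minus strand with 6 TSSs, had 4 RUNX2 peaks before and 2 after differentiation. The kept peaks were near internal start sites, 90 bp upstream of Rarg-005 and 517 bp upstream of Rarg-002. The lost peaks were at the 5′ end, 16 bp downstream of the TSS of Rarg-006 and 1.53 kb upstream of Rarg-001. The single C/EBPβ peak of Rarg by nearest TSS lay on the Rarg-005 promoter peak, over the same TTGCGCAA shown above. It was absent from the differentiated list. Within 20 kb of a TSS of Rarg lay 2 C/EBPβ peaks before and 1 after differentiation, and 5 and 3 RUNX2 peaks. None of the 4 RUNX2 peaks counted by nearest TSS contained the RUNX motif.

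H3K4me3 of Rarg also narrowed, from 39.2% to 27.2% of the body, and stayed at 5 of its 6 TSSs. The internal region was 7.35 kb wide before and 4.56 kb wide after differentiation, and the one at the 5′ end 4.41 and 2.61 kb. Of its 4 RUNX2 peaks 3 stayed within H3K4me3, in contrast to 1 of 11 in Rara. H3K36me3 covered 79.6% and 88.6% of Rarg. H4K5Ac and H3K9Ac were at all 6 TSSs in both states.

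Rarb, which encodes RARβ, is much longer, 388 kb at chr14:17263356-17651381 on the minus strand, and looked different from the other receptors. It had no H3K4me3 in either state and H3K36me3 on 1.91% and 2.07% of its body, in a region shared with the adjoining gene Top2b, 0.055 kb away. Its only RUNX2 peak, in an intron 64.7 kb from the nearest TSS, contained the RUNX motif and was lost. C/EBPβ had 3 peaks before and 2 after differentiation by nearest TSS, and 5 and 2 by gene body plus 10 kb. An intronic one 61.9 kb from the TSS was kept and one 42.8 kb upstream of the gene was gained. H3K9Ac regions in the body went from 1 to 5, which raised its cover from 0.609% to 3.53%. By the deposited score, the region present in both states ranked 11931st of 23671 in differentiated cells. The others ranked between 16572nd and 21493rd, in the weaker part of that list, and the undifferentiated list held 14975 regions. The start site of Rarb-202, just downstream of the repeat shown above, had no H4K5Ac or H3K4me1 within 1 kb before differentiation and both after, and no H3K9Ac or H3K4me3 in either state.

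Cyp26a1 and Cyp26c1, which both encode retinoic acid hydroxylases, are neighbours on chromosome 19, 4.41 kb apart. Cyp26a1, at chr19:37772298-37776018 on the plus strand, carried none of the 4 promoter marks within 1 kb of its TSS in either state, and no H3K4me3, H3K9Ac or H3K36me3 in its body. H4K5Ac covered 59.3% and 62.2% of the body and H3K4me1 54.4% and 44.6%. Its factor peaks all lay downstream, between genes. RUNX2 had 2 in each state. The one at 8.10 kb was kept, the one at 80.1 kb was lost and one at 29.6 kb was gained. C/EBPβ had 4 peaks before and 1 after, at 5.01, 8.19, 29.5 and 47.5 kb, and the peak at 8.19 kb was kept. The site near 8 kb was thus called for both factors in both states, the only such site of the 8 genes. At the site near 29.5 kb C/EBPβ was called in undifferentiated cells alone and RUNX2 in differentiated cells alone. The limit of 100 kb mattered for this gene: the farthest peak counted lay at 80.1 kb, and the nearest uncounted ones were a RUNX2 and a C/EBPβ peak of undifferentiated cells, both at 102.5 kb.

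Cyp26c1, at chr19:37760071-37767888 on the plus strand, had no factor peak and no H3K4me3, but its body marks differed between states. H3K36me3 covered none of it in undifferentiated and 100% in differentiated cells, in a region of 12.5 kb that ended before Cyp26a1. H3K9Ac covered none and 65.8%. H4K5Ac covered 84.0% and 100%, and H3K4me1 78.8% and 78.0%. At the TSS the sole mark among H4K5Ac, H3K9Ac, H3K4me1 and H3K4me3 was H4K5Ac, in both states. The H3K36me3 region ranked 10804th of 17330 by the deposited score, so the value for Cyp26c1 rests on a region in the weaker part of that list, and it was 0% when both lists were limited to their better-scoring 50%.

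**Figure D4:**
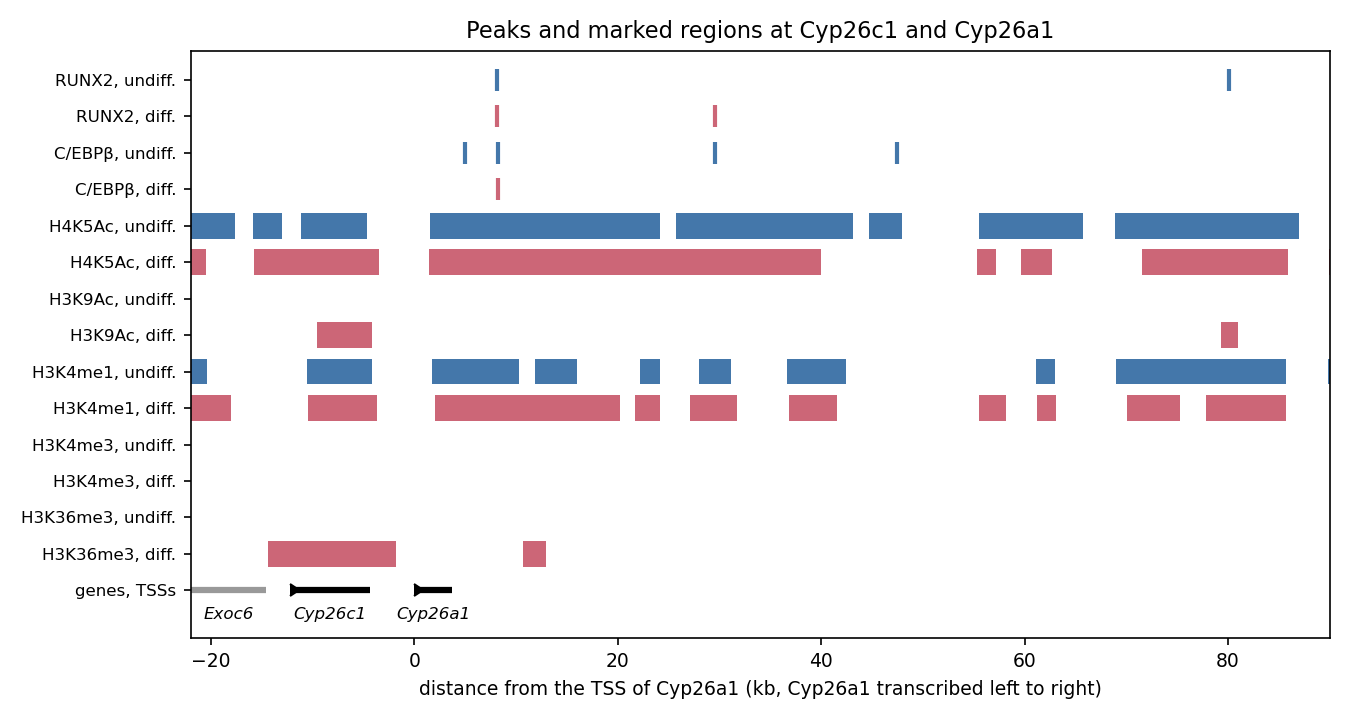
Peaks (ticks) and marked regions (bars) around Cyp26c1 and Cyp26a1 in undifferentiated (blue) and differentiated (red) cells, against the distance in kb from the TSS of Cyp26a1. The H3K36me3 and H3K9Ac bars over Cyp26c1 appear in differentiated cells alone, the H3K4me3 rows are empty, and the factor ticks all lie to the right of Cyp26a1.

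Cyp26b1, at chr6:84521938-84543740 on the minus strand, was the Cyp26 gene with an active-promoter mark. H3K4me3 lay at the TSS of Cyp26b1-202 in both states, in regions of 2.95 and 3.13 kb, and H3K36me3 covered 72.3% and 68.7% of the body. The upstream TSS of Cyp26b1-201 had H4K5Ac in both states and no H3K4me3, and H3K4me1 in differentiated cells alone. RUNX2 had 1 peak in each state, 63.0 and 63.6 kb upstream inside the gene Exoc6b, but their centres were 565 bp apart, so one counted as lost and the other as gained. A C/EBPβ peak at the former site was kept with its centre moved by 2 bp. Each of the 2 RUNX2 peaks contained the RUNX motif.

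Crabp1, whose product binds retinoic acid in the cytoplasm, lies at chr9:54612555-54620917 on the plus strand and had no promoter mark, no H3K9Ac and no H3K36me3 in its body. Its cover by H3K4me1 was 9.81% before and 37.0% after differentiation, and by H4K5Ac 4.76% and 14.1%. A RUNX2 peak 37.9 kb downstream of its TSS was lost and one 11.8 kb downstream was gained, and neither contained the RUNX motif. C/EBPβ likewise lost a peak at 38.5 kb, but its peak at 12.1 kb was kept, and the peaks of the factors did not overlap. In differentiated cells a small H3K9Ac region of 1.05 kb covered the gained RUNX2 peak and the kept C/EBPβ peak. That region ranked 22963rd of 23671 by the deposited score, near the bottom of its list.

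Crabp2, whose product carries retinoic acid to the nuclear receptors, lies at chr3:87752588-87757298 on the plus strand. H4K5Ac and H3K4me1 covered all of it in both states, H3K9Ac 62.3% and 73.1%, and H3K4me3 was absent. H3K36me3 covered 24.5% in undifferentiated and 50.9% in differentiated cells, just past the 50% that counted as a covered body, and 0% in both states when the lists were limited to their better-scoring 50%. RUNX2 had peaks at 1.03 and 1.34 kb downstream of the TSS, of which the second was kept. C/EBPβ had a kept peak 5.94 kb upstream and a lost one over the kept RUNX2 peak.

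**Figure D5:**
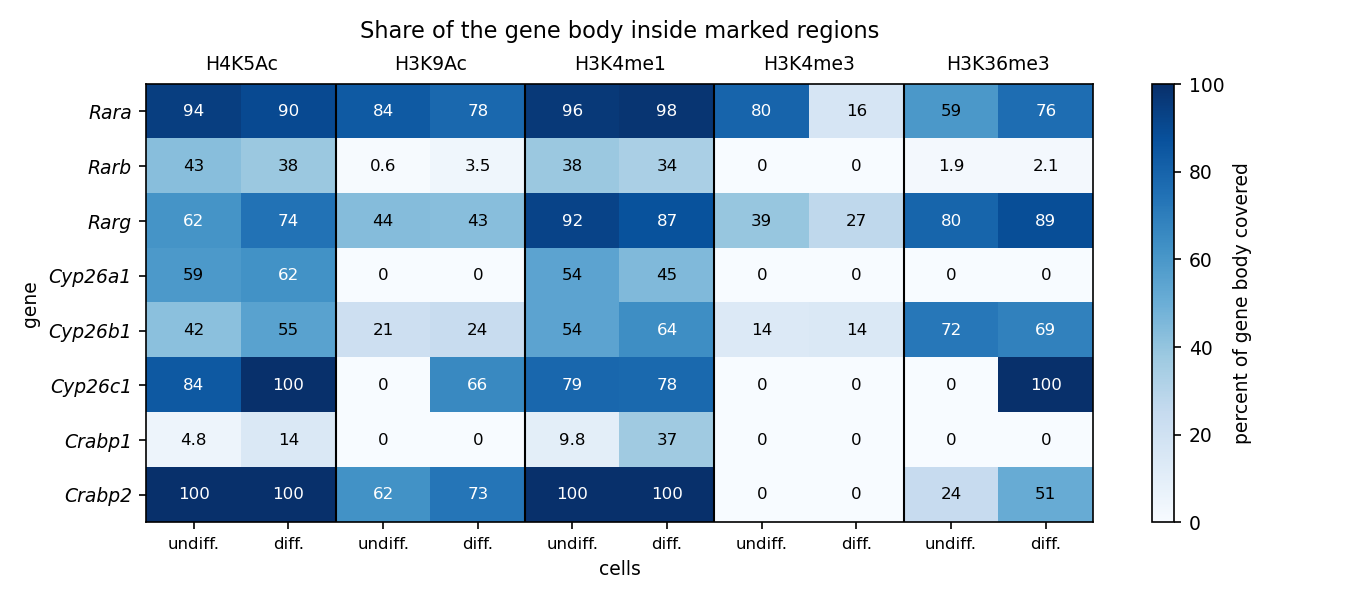
Percent of each gene body (rows) inside regions of 5 histone marks (columns, undifferentiated and differentiated cells side by side), with the value in each cell. Rara loses H3K4me3 cover from 80.0% to 16.4%, Cyp26c1 goes from 0% to 100% for H3K36me3, and the rows of Cyp26a1 and Crabp1 are empty for H3K9Ac, H3K4me3 and H3K36me3.

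Across the 8 genes, H3K4me3 marked a TSS of Rara, Rarg and Cyp26b1 in both states, 3 of 8, against 34.9% of all genes in undifferentiated and 40.1% in differentiated cells. H4K5Ac marked a TSS of 5 and then 6 genes, Rarb being the addition, against 55.5% and 54.3%. H3K9Ac marked 4 and 4, against 49.2% and 52.5%, and H3K4me1 5 and 5, against 57.1% and 59.0%. H3K36me3 covered at least 50% of the body of Rara, Rarg and Cyp26b1 in undifferentiated cells, and of these 3 plus Cyp26c1 and Crabp2 in differentiated cells, against 46.0% and 46.1% of all genes. With the better-scoring 50% of both lists, 3 genes were covered in differentiated cells in place of 5. H3K36me3 cover was higher in differentiated cells at 5 of the 6 genes with any, Cyp26b1 being the exception. Among all genes with cover, 46.3% were higher. Of the 5, Rarb rose only from 1.91% to 2.07%. Cyp26c1 and Crabp2, also among the 5, were at 0% in both states with the better-scoring 50% of both lists. H3K9Ac regions by nearest TSS numbered 10 and 17 over the 8 genes, in a list that was itself longer. Among receptors, Rarb lacked H3K4me3, among the enzymes Cyp26a1 and Cyp26c1, and neither binding protein had it.

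Of the 22 undifferentiated RUNX2 peaks, 7 were found again in differentiated cells, 31.8%, against 36.4% of all 12674 peaks. With 11 of the 22 in Rara, the peaks are not independent of each other, and the share is given with no interval. Differentiated cells had 3 gained peaks at these genes, at Cyp26a1, Cyp26b1 and Crabp1, which makes 3 of 10 against 26.2% of all differentiated RUNX2 peaks. None of the 3 was within 1 kb of a TSS, where 18.6% of all differentiated RUNX2 peaks lay. Of the 7 kept peaks 5 overlapped an undifferentiated C/EBPβ peak, and of the 15 lost peaks 1 did, a difference that was not tested. In the whole RUNX2 list the shares were 40.9% of kept and 25.5% of lost peaks. At 4 of the 5 kept sites, 2 in Rara and 1 each in Rarg and Crabp2, C/EBPβ was no longer called in differentiated cells, and at the remaining one, near Cyp26a1, it was. In the whole list 44.6% of such kept sites still had C/EBPβ. Over the 8 genes, RUNX2 peaks on a C/EBPβ peak of the same state went from 6 of 22 to 1 of 10, against 31.1% and 22.2% of all RUNX2 peaks.

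C/EBPβ itself kept 6 of its 16 undifferentiated peaks, 37.5%, against 43.1% of its whole list. Of its 7 differentiated peaks 1 was gained, upstream of Rarb, against 37.9% of all differentiated C/EBPβ peaks. The 6 kept peaks were spread over Rara, Rarb, Cyp26a1, Cyp26b1, Crabp1 and Crabp2, 1 each. Within 1 kb of a TSS, C/EBPβ had 2 peaks before, in Rara and Rarg, and none after, against 14.7% and 12.7% of the whole lists.

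The chromatin around the RUNX2 peaks was marked in both states. All 22 undifferentiated peaks lay in H4K5Ac and in H3K4me1 regions of undifferentiated as well as differentiated cells, as did 93.9 to 98.2% of the whole list. H3K9Ac held 18 of the 22 before and 19 after differentiation, against 55.0% and 77.0% of the whole list. H3K4me3 held 15 of the 22 in undifferentiated cells, all of them in Rara or Rarg, and 4 in differentiated cells, whereas in the whole list the share was 24.4% and 23.8%. H3K36me3 held 5 and 9, against 24.0% and 22.7% of the whole list.

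The RUNX motif was in 9 of 22 undifferentiated and 4 of 10 differentiated RUNX2 peaks, against 51.5% and 59.6% of all RUNX2 peaks. The C/EBP motif was in 8 of 16 and 4 of 7 C/EBPβ peaks, against 41.1% and 44.8%. No direct repeat of AGGTCA or AGTTCA half-sites with a spacer of 1, 2 or 5 was in any RUNX2 or C/EBPβ peak of the 8 genes, and 14 of the 12674 undifferentiated RUNX2 peaks held one. Admitting GGGTCA and GGTTCA left the peaks of the 8 genes without a repeat and raised that number to 32.

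The rest of the retinoid pathway was described with 33 other genes. RUNX2 had 35 peaks at them before and 27 after differentiation. A RUNX2 peak was at 13 of the 33 before and 12 after, against 27.3% and 15.0% of all genes. Of the 13 with a peak in either state, 6 had fewer, 2 more and 5 the same number afterwards. Of all genes with a RUNX2 peak, 68.1% had fewer. C/EBPβ had 49 and 34 peaks, with 12 genes lower, 3 higher and 4 equal, where 51.6% of all genes with a C/EBPβ peak had fewer. A C/EBPβ peak was at 17 of the 33 before and 16 after, against 27.7% and 21.8% of all genes. H3K4me3 marked a TSS of 14 of the 33 in each state, against 34.9% of all genes before and 40.1% after differentiation. It lost Ncoa1, a coactivator, and added Rdh11, a retinol dehydrogenase. H3K36me3 covered at least 50% of 15 of the 33 in each state, against 46.0% and 46.1% of all genes of 2 kb or more.

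Among the receptor partners, Rxra, which encodes a retinoid X receptor, had the most RUNX2 peaks, 10 and 6, and 7 and 5 C/EBPβ peaks. H3K4me3 marked Rxra in both states. In the synthesis group, Dhrs3, which turns retinal back to retinol, had 3 and 2 RUNX2 peaks, and Aldh1a3, which makes retinoic acid, had 1 and 1. Bco1, which cleaves β-carotene and is called Bcmo1 in the annotation, had 1 and 0.

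The 8 known response genes had 11 RUNX2 peaks before and 8 after differentiation. These were at 5 of the 8 in each state, against 27.3% and 15.0% of all genes. Hoxb1 had 3 and 1, Tgm2, a transglutaminase, 3 and 2, Meis1 2 and 2, and Meis2 1 and 2. H3K36me3 covered 90.4% and 91.5% of Tgm2 and 99.0% and 98.9% of Meis2. The peak counts of the pathway as a whole went down, but so did the whole lists. RUNX2 went from 12674 to 6272 peaks there, and C/EBPβ from 15622 to 10847. Rara, with 8 fewer RUNX2 peaks than before, had a larger drop than any of these 33 genes, of which Rxra, with 4 fewer, came next.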

How the data were processed

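ChIP-seq peak lists of 7 antibodies in 2 states of MC3T3-E1 cells were used. The submitters' processing notes name Bowtie, HOMER and mm9. Neither their versions nor the calling thresholds were given in the sources used here. Peak names in the deposited files record at least 2 merged peaks, so replicates cannot be separated. The score deposited by the authors was 0 throughout the RUNX2 and C/EBPβ lists and was used to rank histone-mark regions within their list.

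Positions were compared with NCBIM37 (mm9) and GENCODE vM1, with 22238 protein-coding genes and 69991 TSSs. Overlap meant 1 bp or more, a promoter was the 1 kb on either side of a TSS, peaks went to the nearest TSS within 100 kb by their centre, and gene-body cover was computed for genes of 2 kb or more. The genes named were the 8 members, the 10 pathway genes with most RUNX2 peaks, those whose H3K4me3 call changed and the 5 most like Rara, though 2 of the 10 are not reported here; the other genes were named after their values were seen. Members and lists were chosen with earlier results of these data known. Python 3.11.15, NumPy 2.4.6, SciPy 1.17.1, pysam 0.24.0 and samtools 1.23.1 were used, and the steps were tested on simulated data. Alternatives varied peak assignment, overlap, promoter width and list length.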

Additional observations from a re-analysis of the deposited data

How the results depend on the processing

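Of 106 recomputed main values, totals over the genes and the H3K4me3 cover of Rara, 103 stayed within 1.5 times the reported value. Among all 235 recomputations, only the single-gene differences in peak number had a sign, and none of these reversed it. Some differences of -1 became 0, however. These were RUNX2 at Rarb (20 kb or 50 kb) and Crabp2 (peaks merged), and C/EBPβ at Rarb and Crabp1 (20 kb). Within 20 kb, with the 50 kb limit and with peaks merged, 3 genes in place of 4 had fewer RUNX2 peaks after differentiation. A reported difference of 0 could not change sign. The 3 totals that moved by more than 1.5 times were these. Limiting both H3K36me3 lists to their better-scoring 50% left 3 genes with at least 50% cover in differentiated cells in place of 5, because Cyp26c1 and Crabp2 were then at 0%. Requiring 100 bp of overlap left 0 differentiated RUNX2 peaks on C/EBPβ, and 0 C/EBPβ peaks on RUNX2, in place of 1. The RUNX2 drop at Rara was 11 to 3 under each assignment tried, and 9 to 2 with peaks within 500 bp merged. Single-gene differences moved mostly at genes with distant peaks: within 20 kb of a TSS Rarb had no factor peak, and with a limit of 50 kb Cyp26a1 had 1 RUNX2 peak more in differentiated cells. Cover of Rara by H3K4me3 was the same with the longer list shortened by score and with the better-scoring 50% of both lists, alternatives chosen after seeing the data. A stricter threshold for RUNX2 and C/EBPβ could not be set, since all their scores are 0. No paired analysis was possible because each antibody and state had 1 merged list. Peak lists carry no depth, so a peak that is missing from a list may lie below the calling threshold.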
